A study of Mus musculus with 28 samples.

Results

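The comparison of IL-21 for 24 h with no cytokine rests on 2 RNA-seq libraries of mouse CD4+ T cells, 1 on each side, out of 28 samples in the series. Both were chosen by their labels. The first library came from cells treated with the cytokine IL-21 for 24 h, and the other from cells given no cytokine, for which the labels state no time. All cells came from spleens of wild-type C57BL/6 mice and had been stimulated for 3 days on plate-bound anti-CD3 (2 µg/ml) with anti-CD28 (1 µg/ml) and then rested overnight, so both groups are previously activated T cells. Of the remaining samples, 7 are RNA libraries (IL-21 at 0.5, 2 and 4 h, and IL-2 at 0.5, 2, 4 and 24 h) that serve here to show where a gene stood at other times and under another cytokine. The other 19 samples are chromatin libraries and were not used. Levels are in RPKM, reads scaled to transcript length and library total, and 11049 of 23222 gene symbols were compared, those with at least 1 RPKM in some RNA library. With 1 library a side no replicate check can be made, and differences are described by size, without p-values. No library labelled as kept without cytokine for 24 h was analysed here, so IL-21 and any added time in culture cannot be told apart.

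IL-21 is made mainly by follicular helper, Th17 and natural killer T cells, and acts on B cells, natural killer cells and T cells. It binds a receptor made of its own chain, IL-21R, and the common gamma chain shared with IL-2, and the kinases JAK1 and JAK3 then phosphorylate mostly STAT3, and less strongly other STATs. Phosphorylated STAT dimers bind palindromic DNA sites and turn on, among others, the feedback inhibitor SOCS3. In T cells IL-21 is known for its part in Tfh and Th17 differentiation and in cytotoxic function.

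The library of cells with IL-21 for 24 h had 37.9 M reads by the authors' totals and the library without cytokine 34.4 M, within the 29.5 to 44.3 M of the 9 RNA libraries. In a transcript of 1 kb, 1 read was worth 0.0264 RPKM with IL-21 for 24 h and 0.0291 RPKM without cytokine. All 9 CD4 T cell markers lay within 2-fold between the libraries, with a summed 2069 RPKM after IL-21 and 2020 RPKM without cytokine. B cell markers and class II antigen presentation genes were present at low to moderate levels and were not equal between the libraries: the B cell markers summed to 13.3 RPKM after IL-21 and 68.5 RPKM without cytokine. They are described at the end, and their part in other differences was not tested.

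After 24 h of IL-21, most genes stood close to their level without cytokine. A gene was counted as different when log2(RPKM + 1) differed by at least 1 between the libraries, that is by 2-fold after adding 1 RPKM to each level. Of the 11049 genes, 179 (1.62%) were at least 2-fold higher and 206 (1.86%) at least 2-fold lower after IL-21, and 10664 lay within 2-fold. In either direction this is 3.48% of the genes, the share against which the counts in each gene list below are to be read. The middle 90% of the log2 differences ran from -0.70 to 0.63, with a median of -0.004. At least 4-fold differences were seen for 24 genes that were higher and 27 that were lower. For all 385 counted genes the 95% interval of the RPKM ratio, which covers counting error only, excluded equal levels. These genes were chosen by the same counts, so this adds no support for their differences.

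**Figure D1:**
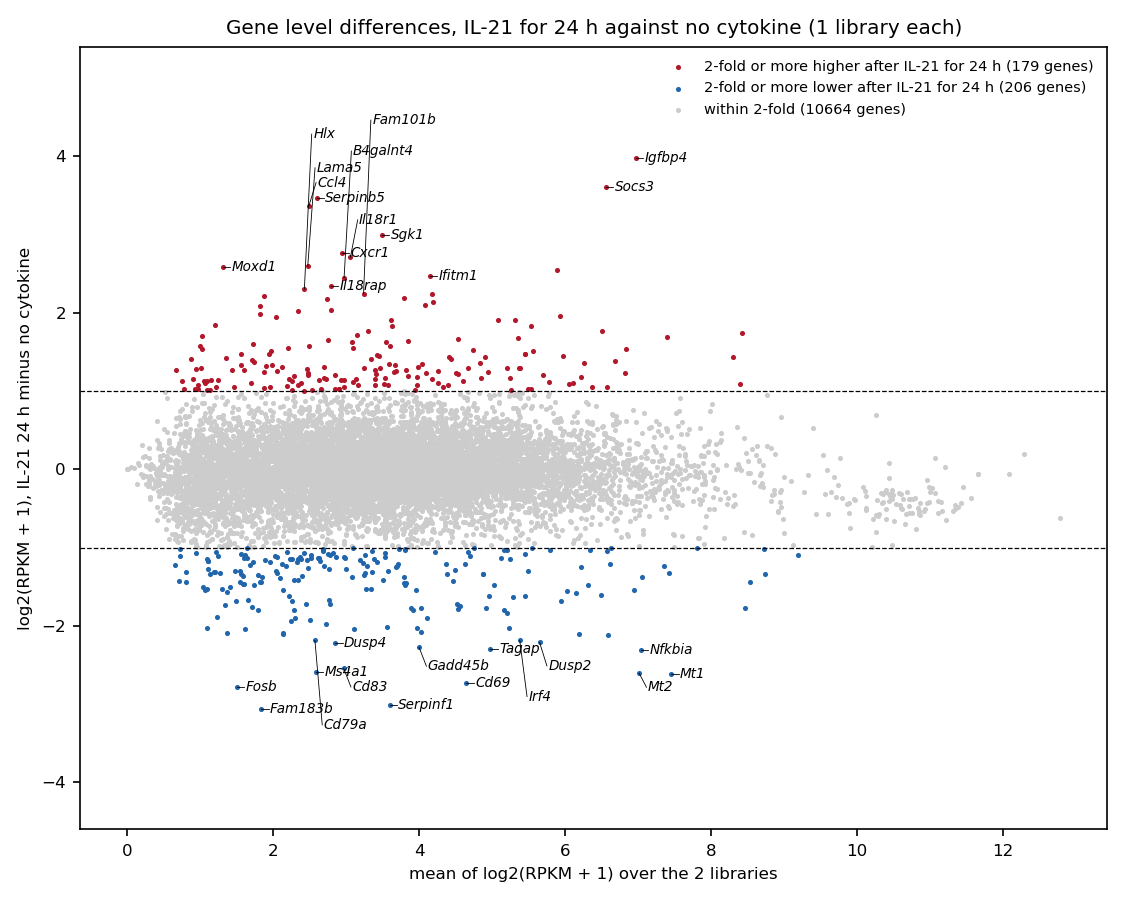
Log2(RPKM + 1) after IL-21 for 24 h minus no cytokine (vertical axis) against the mean of the same measure over the 2 libraries (horizontal axis), 1 point per gene. Red points are the 179 genes at least 2-fold higher after IL-21, blue points the 206 at least 2-fold lower, and named genes are among the 15 with the largest difference each way, led by Igfbp4 and Socs3 above and Fam183b and Serpinf1 below.

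Igfbp4, which encodes a secreted protein that binds insulin-like growth factors, had the largest positive difference. It stood at 497 RPKM after 24 h of IL-21 and at 30.6 RPKM without cytokine, a ratio of 16.2 (95% counting interval 15.5 to 16.9). Its level was higher at each later time, with 33.6, 151 and 358 RPKM at 0.5, 2 and 4 h, and was also high, at 263 RPKM, in the 24 h IL-2 library. The plot of difference against level shows that Igfbp4 and Socs3 were the most abundant of the 15 genes with the largest positive differences.

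Among the genes that carry and restrain the IL-21 signal, the receptor chain and 1 feedback inhibitor were higher, and the kinases and STATs lay within 2-fold. Il21r (NM_021887, chromosome 7 in mm9), which encodes the IL-21-binding chain, stood at 194 RPKM after IL-21 for 24 h and 66.4 RPKM without cytokine, a ratio of 2.93 (2.84 to 3.01). Of 13 receptor, JAK and STAT genes 1, Il21r, was at least 2-fold higher and 0 lower, with a median log2 difference of 0.08. The gene of the common gamma chain, Il2rg, was at 324 RPKM after IL-21 and 322 RPKM without cytokine. Stat3, the main transducer of this receptor, was at 83.9 RPKM after IL-21 and 66.3 RPKM without cytokine. Stat5a had the largest positive difference of the STATs, with 52.3 RPKM after IL-21 and 35.0 RPKM without cytokine (log2 difference 0.57). The kinase genes ranged from a log2 difference of -0.48 for Tyk2 to 0.27 for Jak1. These values describe transcript levels and say nothing of phosphorylation.

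The feedback inhibitors lay on both sides. Socs3 (NM_007707, chromosome 11 in mm9), whose protein inhibits JAK kinases at receptors that use STAT3, stood at 331 RPKM after 24 h of IL-21 and 26.1 RPKM without cytokine, a ratio of 12.7 (12.2 to 13.2). Most of that difference was there after 0.5 h, at 275 RPKM, and the 2 and 4 h libraries had 235 and 311 RPKM. In the 24 h IL-2 library it was 44.0 RPKM. Set against the IL-21 library of 0.5 h in place of the one without cytokine, its log2 difference at 24 h was 0.27 and the gene was no longer counted. Cish, a SOCS family gene classically induced through STAT5, was lower, with 63.9 RPKM after 24 h of IL-21 and 149 RPKM without cytokine, a ratio of 0.43 (0.416 to 0.444). It had been at 203 RPKM after 0.5 h of IL-21. Socs1 (85.5 RPKM after IL-21, 62.0 RPKM without cytokine) and Socs2 (15.4 RPKM after IL-21, 7.73 RPKM without cytokine) lay within 2-fold on the scale used. Of the 14 SOCS and other feedback genes 1 was higher and 1 lower, with a median log2 difference of 0.06.

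**Figure D2:**
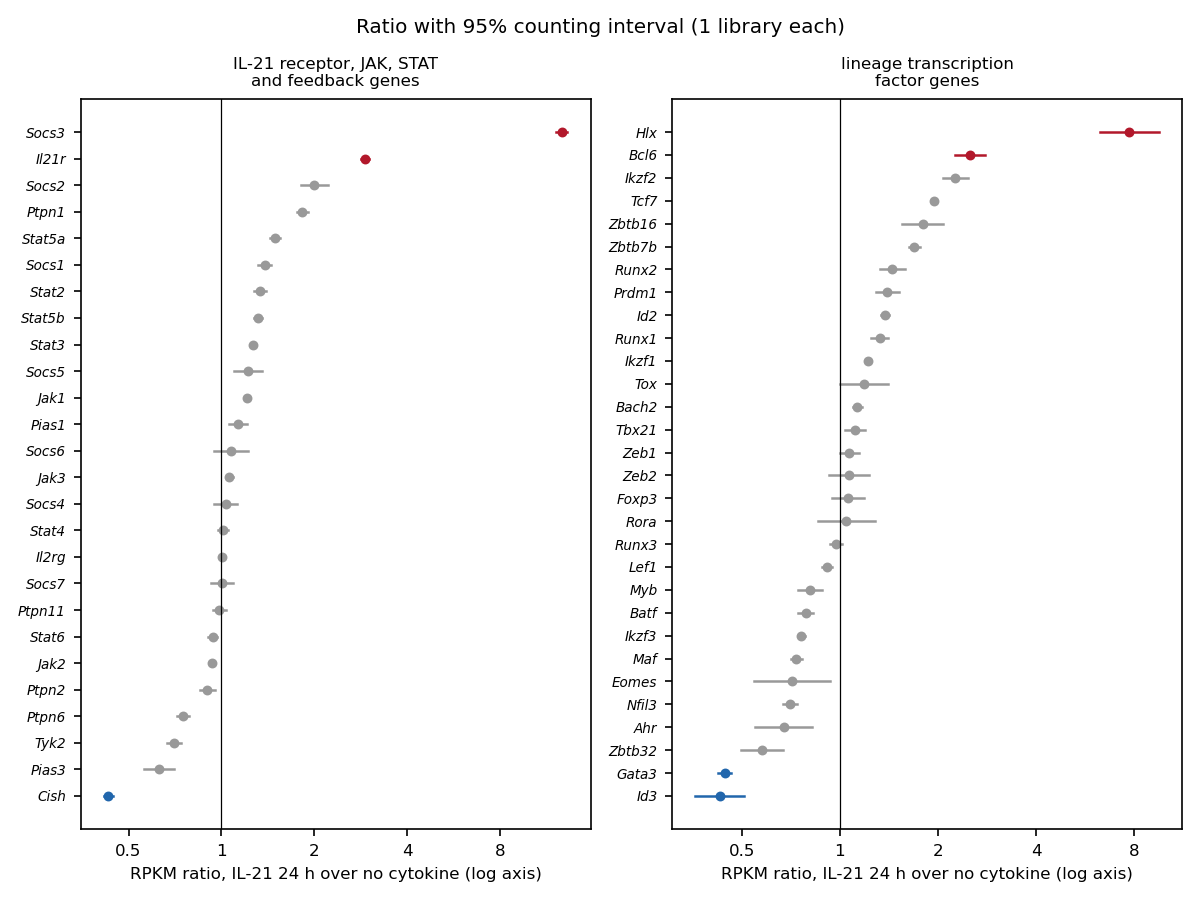
Ratio of RPKM after IL-21 for 24 h to RPKM without cytokine (log axis) for receptor, JAK and STAT genes, feedback genes and lineage transcription factors, with bars for the 95% counting interval of 1 library against 1. Socs3 lies far to the right at 12.7, Il21r at 2.93 and Cish to the left at 0.43, while the JAK and STAT genes sit near 1.

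The promoters of Socs3 and of 3 other genes that were higher hold the palindrome TTCNNNGAA, the core that STAT proteins bind, within 250 bases before the transcription start. They are shown because the comparison concerns a cytokine that signals through STAT3, and to let the sites be seen in context. Sgk1 encodes a kinase induced by serum and glucocorticoids, Il18r1 a chain of the IL-18 receptor, and Bcl6 the transcriptional repressor that Tfh cells depend on. The sequences are RefSeq's, of build GRCm38.p6, each 5′ to 3′ on the gene's own strand and ending just before the start, with the palindrome in capitals. They lie at chr11:117969367-117969616 on the minus strand for Socs3, chr10:21881934-21882183 on the plus strand for Sgk1, chr1:40465756-40466005 on the plus strand for Il18r1 and chr16:23988853-23989102 on the minus strand for Bcl6.
Socs3: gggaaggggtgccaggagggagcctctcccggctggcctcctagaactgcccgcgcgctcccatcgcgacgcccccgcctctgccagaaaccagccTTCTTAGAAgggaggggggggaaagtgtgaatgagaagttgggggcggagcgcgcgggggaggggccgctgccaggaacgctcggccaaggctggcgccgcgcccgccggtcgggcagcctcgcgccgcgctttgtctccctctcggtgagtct
Sgk1: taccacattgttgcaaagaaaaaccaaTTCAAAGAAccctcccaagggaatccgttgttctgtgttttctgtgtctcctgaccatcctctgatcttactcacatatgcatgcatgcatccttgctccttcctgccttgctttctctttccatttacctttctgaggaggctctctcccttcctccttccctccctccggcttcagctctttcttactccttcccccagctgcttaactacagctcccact
Il18r1: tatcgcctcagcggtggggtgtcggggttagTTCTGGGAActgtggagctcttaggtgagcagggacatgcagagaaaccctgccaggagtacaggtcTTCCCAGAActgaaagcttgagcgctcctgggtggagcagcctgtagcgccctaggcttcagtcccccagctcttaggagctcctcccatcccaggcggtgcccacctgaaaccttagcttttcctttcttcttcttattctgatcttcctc
Bcl6: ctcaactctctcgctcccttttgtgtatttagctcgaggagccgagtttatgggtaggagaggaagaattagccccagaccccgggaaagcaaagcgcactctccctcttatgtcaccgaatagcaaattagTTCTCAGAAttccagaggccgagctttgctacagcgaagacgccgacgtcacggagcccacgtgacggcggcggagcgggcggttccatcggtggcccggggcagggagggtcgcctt

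Counted back from the start, the palindrome begins at -154 in Socs3, -223 in Sgk1, -219 and -152 in Il18r1 and -118 in Bcl6. It reads as TTCTTAGAA in Socs3, TTCAAAGAA in Sgk1, TTCTGGGAA and TTCCCAGAA in Il18r1, and TTCTCAGAA in Bcl6. Sgk1 has 6 RefSeq windows and Il18r1 3, and the window shown is the 1 of each gene's that holds a match. The motif is its own reverse complement, so a search of 1 strand covers both. In windows of 250 bases before to 50 after the start, 21 of 183 windows (11.5%) of the genes that were higher held it, and 18 of 215 (8.37%) of the genes that were lower. Among all tested genes it was 787 of 11122 windows (7.08%), and of all promoter windows given by RefSeq 2726 of 32851 (8.3%). The windows cover 136 of the 179 higher genes and 160 of the 206 lower ones. Sgk1 and Il18r1 were picked for display among genes that hold a match. Most of the 15 genes with the largest positive differences had no match in these windows, Igfbp4 among them. A match describes letters, not binding, and sites outside these windows were not looked for.

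A list of 17 genes known as STAT3 targets had 5 higher, where 1.62% of all genes were, and 1 lower, with a median log2 difference of 0.43, against -0.004 over all genes. The higher ones were Socs3, Il21r, Bcl6, Bcl3 and Gzmb. Bcl6 was at 10.4 RPKM after IL-21 for 24 h and 4.14 RPKM without cytokine, a ratio of 2.50 (2.25 to 2.79). It stood at 0.373 RPKM in the 24 h IL-2 library. Bcl3, an atypical IκB protein that works with NF-κB in the nucleus, was at 101 RPKM after IL-21 and 46.1 RPKM without cytokine. Il10, the gene of an anti-inflammatory cytokine that IL-21 can induce, was at 3.79 RPKM without cytokine and 25.03, 13.9, 10.5 and 7.90 RPKM after 0.5, 2, 4 and 24 h of IL-21, so that its peak lay early and the log2 difference at 24 h was 0.90. The lower gene of this list was Irf4, described with the activation genes.

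Genes of cytotoxic function lay mostly on the higher side. Of 15 granzyme, perforin and cytotoxic genes tested, 4 were at least 2-fold higher (1.62% over all genes) and 1 lower (1.86% over all genes), with a median log2 difference of 0.65. That median is the value of Gzme, which had 37 reads after IL-21 and 10 without cytokine. Gzmd and Gzme were at 0.466 and 0.315 RPKM without cytokine. The limit of 1 RPKM can be met in the IL-21 library itself, which favours such genes. Gzmg, Gzmk and Gzmm, within 2-fold, were below that limit and left out. Gzmb, a granzyme that triggers death of target cells, stood at 631 RPKM after 24 h of IL-21 and 187 RPKM without cytokine, a ratio of 3.37 (3.29 to 3.45). Gzma, another granzyme, stood at 519 RPKM after IL-21 and 191 RPKM without cytokine. Prf1, the gene of pore-forming perforin, was at 13.1 RPKM after IL-21 and 2.42 RPKM without cytokine, a ratio of 5.39 (4.58 to 6.38). Before 24 h, Gzma alone of these was at 2-fold or more, at 4 h. Gzma was at 296 and 450 RPKM after 2 and 4 h, Gzmb at 244 and 362 RPKM, and Prf1 at 2.66 and 4.17 RPKM. Nkg7, a gene of cytotoxic granules, was at 48.5 RPKM after IL-21 and 17.3 RPKM without cytokine. The member that was lower was Serpinb6b, a serpin protease inhibitor, with 18.1 RPKM after IL-21 and 37.3 RPKM without cytokine. Its log2 difference of -1.005 was -0.93 with trimmed-mean (TMM) scaling, which ends its count.

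Killer cell lectin-like receptors, surface receptors of natural killer cells and some T cells, were on the same side. This family was picked after its values had been seen. Of 35 listed, 16 were tested, all 16 had a positive difference and 9 were at least 2-fold higher (1.62% over all genes), with a median of 1.02. The limit of 1 RPKM can be met in the IL-21 library itself, which favours positive differences among low genes. Klra1, Klra15, Klra22 and Klra13-ps were at 0.768, 0.489, 0.448 and 0.428 RPKM without cytokine, so the count and median are partly set by that limit. In the 24 h IL-2 library the median was 0.02. Klrd1, the gene of CD94, was at 20.9 RPKM after IL-21 for 24 h and 8.10 RPKM without cytokine. Klrk1, the gene of the activating receptor NKG2D, was at 5.78 RPKM after IL-21 and 2.36 RPKM without cytokine, and its log2 difference of 1.01 was 0.998 with upper quartile scaling, which ends its count. Klra7 was at 10.95 RPKM after IL-21 and 2.79 RPKM without cytokine. The Klra genes are near-identical copies, so their single values are uncertain and the counts above are not of separate observations. Of the natural killer cell markers, 4 of 6 tested were at least 2-fold higher (1.62% over all genes), with Nkg7, Klrd1, Klrk1 and Cd7 (13.2 RPKM after IL-21, 2.15 RPKM without cytokine). Nkg7 is also counted on the cytotoxic list, and Klrd1 and Klrk1 among the lectin-like receptors above, so only Cd7 is added here. The most specific natural killer cell markers were close to absent: Ncr1 had 8 reads after IL-21 and 11 without cytokine, and Klrb1c had 11 reads after IL-21 and 16 without cytokine. Eomes, a factor of natural killer and memory CD8 T cells, had a log2 difference of -0.23. Cd8a was at 2.12 RPKM after IL-21 and 0.548 RPKM without cytokine, and the difference of Cd8b1 was 0.01.

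The Th1 list was mixed. Of 15 genes tested 4 were higher and 2 lower, with a median of 0.05. Both chains of the receptor for IL-18, a cytokine that drives interferon-γ release, were higher. Il18r1 was at 20.3 RPKM after IL-21 for 24 h and 2.26 RPKM without cytokine, a ratio of 8.99 (8.02 to 10.1), and stood at 2.02 RPKM in the 24 h IL-2 library. Il18rap was at 14.6 RPKM after IL-21 and 2.06 RPKM without cytokine, a ratio of 7.07 (6.04 to 8.32). Hlx, a homeobox factor of Th1 cells, was at 10.98 RPKM after IL-21 and 1.42 RPKM without cytokine. Ifng, the gene of interferon-γ, was at 6.91 RPKM after IL-21 and 0.699 RPKM without cytokine, a ratio of 9.89 (6.75 to 15.01). Tbx21, the gene of the Th1 master regulator T-bet, was near equal, at 17.04 RPKM after IL-21 and 15.3 RPKM without cytokine. The lower genes were Bhlhe40, a factor that promotes inflammatory cytokine production, with 45.1 RPKM after IL-21 and 199 RPKM without cytokine, and Il12rb1, a chain of the IL-12 receptor, with 37.8 RPKM after IL-21 and 78.4 RPKM without cytokine. The log2 difference of Il12rb1, -1.03, was -0.96 with TMM scaling, which ends its count.

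Several inflammatory chemokines and chemokine receptors were higher, and others were lower. Ccl4 was at 17.04 RPKM (426 reads) after IL-21 for 24 h and 0.749 RPKM (17 reads) without cytokine, a ratio of 22.7 (14.03 to 39.4). Ccl3 was at 6.05 RPKM after IL-21 and 0.773 RPKM without cytokine. Both encode chemokines that attract inflammatory cells. Ccr2, a receptor for monocyte chemoattractants, was at 34.1 RPKM after IL-21 and 7.18 RPKM without cytokine. Cxcr6, the receptor for CXCL16, was at 44.7 RPKM after IL-21 and 16.8 RPKM without cytokine. S1pr1, the receptor by which T cells leave lymphoid organs, was at 103 RPKM after IL-21 and 36.8 RPKM without cytokine, and at 33.8 RPKM after 4 h, so its difference appeared late. Other members were lower: Cxcl10, an interferon-induced chemokine, had 21 reads after IL-21 and 196 without cytokine. Ccr8, found on Th2 and regulatory T cells, was at 4.89 RPKM after IL-21 and 22.9 RPKM without cytokine. Cxcr4, the receptor for CXCL12, was at 15.3 RPKM after IL-21 and 54.7 RPKM without cytokine, and had been at 24.0 RPKM after 0.5 h. Of 11 chemokine ligand genes listed 7 were tested, of which 3 were higher and 1 lower, with a median of 0.56. These 3 were all under 1 RPKM without cytokine, and the limit of 1 RPKM can be met in the IL-21 library itself, which favours such genes. Of 16 receptor genes on the chemokine and lipid receptor list 4 were higher and 2 lower, with a median of -0.07. Over all genes 1.62% were higher and 1.86% lower. Cxcr1, not on that list and known in human as a receptor for IL-8, was at 19.0 RPKM after IL-21 and 1.94 RPKM without cytokine, and at 0.315 RPKM in the 24 h IL-2 library.

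Of 31 lineage transcription factor genes 2 were higher (Hlx and Bcl6) and 2 lower (Gata3 and Id3), 12.9% of them against 3.48% of all genes, with a median of 0.09. Gata3, the Th2 regulator, was at 24.5 RPKM after IL-21 for 24 h and 55.3 RPKM without cytokine, a ratio of 0.442 (0.423 to 0.462). Id3, an inhibitor of E proteins, was at 5.57 RPKM after IL-21 and 13.0 RPKM without cytokine, but it was at 4.25 RPKM after only 0.5 h, and set against that library its log2 difference turned to 0.32. Prdm1, the gene of Blimp-1, which opposes Bcl6, was at 5.29 RPKM without cytokine and 23.2, 10.4, 8.28 and 7.40 RPKM after 0.5, 2, 4 and 24 h of IL-21. Foxp3, the regulator of Treg cells, was at 4.61 RPKM after IL-21 and 4.35 RPKM without cytokine. Tcf7, a factor of naive and Tfh cells, was at 607 RPKM after IL-21 and 313.02 RPKM without cytokine, a log2 difference of 0.95 and just under the 2-fold limit.

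In the lists around these factors the share at 2-fold or more in either direction was 13.6% for Tfh, 30% for Th2, 22.2% for Th17 and 6.67% for Treg genes, against 3.48% of all genes. Of 22 Tfh genes 2 were higher and 1 lower, with a median of 0.29. Beside Bcl6 the higher one was Btla, an inhibitory receptor, with 28.0 RPKM after IL-21 and 13.0 RPKM without cytokine. Of 10 Th2 genes 0 were higher and 3 lower (Gata3, Ccr8 and Cish), with a median of -0.51. Cish is also counted among the feedback genes above and is not particular to Th2 cells. Of 9 Th17 genes 1 was higher, Il1r1, an IL-1 receptor gene with 1.78 RPKM after IL-21 and 0.246 RPKM without cytokine, and 1 was lower, Irf4. Il17a, the gene of the Th17 cytokine itself, was below the limit for comparison, with 26 reads after IL-21 and 0 without cytokine. Of 15 Treg genes 1 was higher, Lrrc32, whose product GARP holds latent TGF-β at the cell surface, with 20.9 RPKM after IL-21 and 8.53 RPKM without cytokine.

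Genes of recent T cell activation lay mostly on the lower side. Of 37 immediate early and AP-1 genes 12 were at least 2-fold lower, where 1.86% of all genes were, and 3 higher, with a median log2 difference of -0.55. The median of this list was already -0.69 after 4 h of IL-21. It was -0.72 in the 24 h IL-2 library, so the lower side was not particular to IL-21. Cd69, an early activation marker that also retains cells in lymphoid tissue by acting on S1PR1, was at 8.75 RPKM after IL-21 for 24 h and 63.6 RPKM without cytokine, a ratio of 0.138 (0.125 to 0.151). It was at 121 RPKM after 0.5 h of IL-21 and 10.2 RPKM after 2 h. Fosb, an AP-1 subunit, had 12 reads after IL-21 and 835 without cytokine, a ratio of 0.013 (0.00671 to 0.0229). Rgs1, a brake on chemokine receptor signalling, was at 40.3 RPKM after IL-21 and 122 RPKM without cytokine, and at 259 RPKM after 0.5 h. Gadd45b, a stress gene, was at 6.28 RPKM after IL-21 and 34.3 RPKM without cytokine. Its relative Gadd45g lay on the higher side, with 76.2 RPKM after IL-21 and 19.6 RPKM without cytokine, after 172 RPKM at 0.5 h. Ier3 was at 22.7 RPKM after IL-21 and 5.31 RPKM without cytokine, after 25.8 RPKM at 0.5 h. Against the 0.5 h library of IL-21 the log2 differences of Gadd45g and Ier3 were -1.16 and -0.18, so their higher level at 24 h was below an early peak.

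Some phosphatases that switch off MAP kinases and some brakes on NF-κB were also lower. Of 15 dual-specificity phosphatase genes, a list picked after values had been seen, 4 were lower (1.86% over all genes) and 1, Dusp7, higher. All 4 are also counted among the lower immediate early genes above, so they are not a further group. Dusp4 was at 2.35 RPKM after IL-21 for 24 h and 14.6 RPKM without cytokine. Dusp2 was at 22.4 RPKM after IL-21 and 107 RPKM without cytokine, but already at 35.8 RPKM after 0.5 h. Of 21 NF-κB subunit and feedback genes 6 were lower and 1, Bcl3, higher, with a median of -0.49, and Nfkb2, at -1.04, leaves the count with TMM scaling (-0.96). In the 24 h IL-2 library this list had a lower median, -1.25. Nfkbia, the gene of the inhibitor IκBα, was at 58.2 RPKM after IL-21 and 292 RPKM without cytokine, a ratio of 0.199 (0.192 to 0.207). It stood at 294 and 55.0 RPKM after 0.5 and 2 h of IL-21, so the difference appeared between those libraries. Tnfaip3, the gene of the deubiquitinase A20, was at 23.9 RPKM after IL-21 and 75.6 RPKM without cytokine. The same step between 0.5 and 2 h was seen for Bhlhe40, with 195 and 48.5 RPKM, and for Tagap, a GTPase-activating protein of activated T cells, with 77.2 and 11.5 RPKM. Tagap was at 13.2 RPKM after 24 h of IL-21 and 68.9 RPKM without cytokine.

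**Figure D3:**
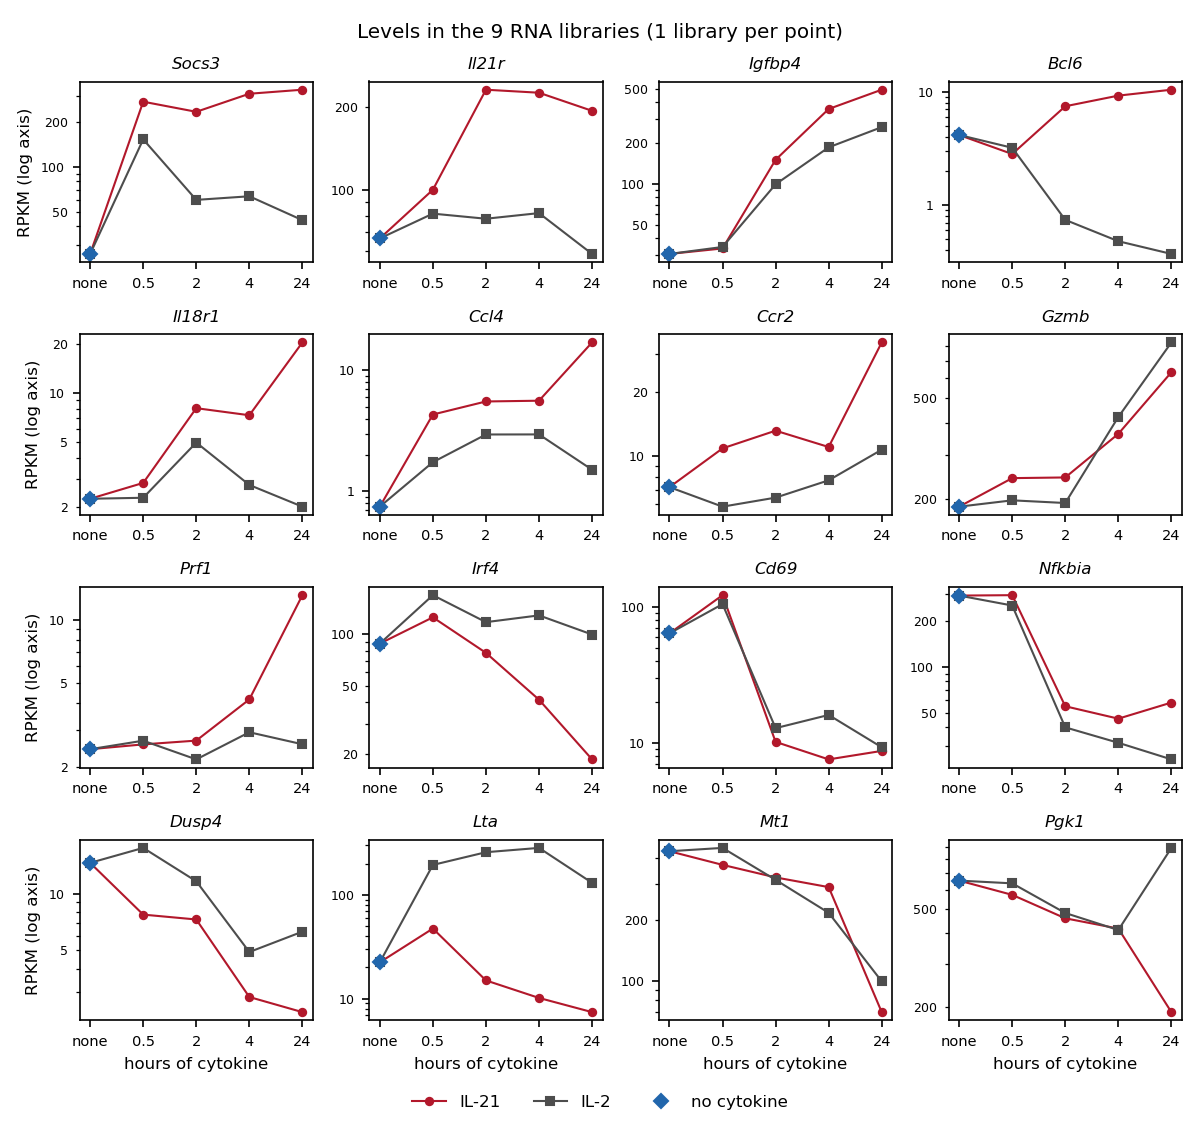
RPKM of 16 genes in the library without cytokine (blue) and after 0.5, 2, 4 and 24 h of IL-21 (red) or IL-2 (grey), on log axes, 1 library per point. Socs3 is high from 0.5 h on, Igfbp4 is higher at each later time, Prf1 is high only at 24 h, and Cd69 and Nfkbia are low from 2 h on.

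Irf4, a factor whose level follows the strength of T cell receptor signalling, was at 87.9 RPKM without cytokine and 125, 77.6, 41.4 and 18.5 RPKM after 0.5, 2, 4 and 24 h of IL-21. The ratio of 24 h to no cytokine was 0.211 (0.203 to 0.219). After 24 h of IL-2 it was 99.3 RPKM. Irf4 is also expressed in B cells, whose 12 markers together summed to 13.3 RPKM after IL-21 and 68.5 RPKM without cytokine, and their part in its difference was not tested. Of 9 interferon regulatory factor genes 4 were lower (1.86% over all genes) and 0 higher, with a median of -0.38. In the 24 h IL-2 library 4 were also lower and 0 higher, with a median of -0.82, though Irf4 was not among them. Irf1, a factor induced by interferon, was at 106 RPKM after IL-21 and 252 RPKM without cytokine. Of 35 interferon-stimulated genes 1 was higher and 2 were lower, with a median of -0.11. The higher one was Gbp2, a guanylate-binding protein, with 491 RPKM after IL-21 and 230 RPKM without cytokine.

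Of 24 genes of the TNF and TNF receptor families 4 were at least 2-fold lower and 0 higher, with a median of -0.07. Tnfsf4, the gene of OX40 ligand, was at 1.56 RPKM after IL-21 for 24 h and 8.52 RPKM without cytokine. Its receptor gene Tnfrsf4 was at 47.4 RPKM after IL-21 and 114 RPKM without cytokine. Tnfrsf9, the gene of 4-1BB, was at 8.08 RPKM after IL-21 and 25.5 RPKM without cytokine. Both ligands of the checkpoint receptor PD-1 were lower: Cd274 was at 17.5 RPKM after IL-21 and 45.6 RPKM without cytokine, and Pdcd1lg2 at 1.48 RPKM after IL-21 and 4.53 RPKM without cytokine. The inhibitory receptor genes Btla, given above, and Cd200r1, at 5.43 RPKM after IL-21 and 1.32 RPKM without cytokine, were higher, but most genes of their list were not. Of the 23 costimulatory and checkpoint genes 3 were higher, 2 lower and 18 within 2-fold, with a median of 0.28. Of 26 T cell receptor signalling genes 0 reached 2-fold, with log2 differences from -0.37 to 0.65.

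Of 20 secreted cytokine genes tested 4 were higher, Ifng among them, and 1 lower, 25% of them against 3.48% of all genes, with a median of 0.03. Tgfb3, a TGF-β isoform, was at 6.89 RPKM after IL-21 for 24 h and 1.69 RPKM without cytokine, and at 10.6 RPKM after 4 h. Csf1, the macrophage growth factor gene, was at 7.48 RPKM after IL-21 and 2.66 RPKM without cytokine. Lta, the gene of lymphotoxin-α, was the lower one, with 7.41 RPKM after IL-21 and 22.4 RPKM without cytokine. It was at 47.3 RPKM after 0.5 h of IL-21 and at 130 RPKM in the 24 h IL-2 library.

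Genes of cell division lay a little to the lower side, within 2-fold. All 28 mitosis genes had a negative difference, between -0.90 and -0.33 with a median of -0.55, and 26 of 30 DNA replication genes did, with a median of -0.41 (Gins1, at -0.009, would turn with TMM scaling). In both lists 0 genes reached 2-fold. All 24 cytosolic ribosomal protein genes were also lower by less than 2-fold, with a median of -0.41. The levels in the 24 h IL-2 library, set beside them, gave medians of 1.05 for mitosis, 1.45 for replication and -0.65 for ribosomal proteins relative to the same library without cytokine, which both comparisons share. Ribosome biogenesis genes had a median of 0.36, but Npm1, a nucleolar chaperone on that list, was at 399 RPKM after IL-21 and 853 RPKM without cytokine. Myc, which drives growth, was at 33.4 RPKM after IL-21 and 65.1 RPKM without cytokine, after 139 RPKM at 0.5 h. Its log2 difference of -0.94 was under the limit.

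Of 18 glycolysis genes 2 were at least 2-fold lower and 0 higher, with a median of -0.32. Pgk1, phosphoglycerate kinase, was at 190 RPKM after IL-21 for 24 h and 654 RPKM without cytokine, a ratio of 0.291 (0.285 to 0.297), and Aldoa, an aldolase, at 225 RPKM after IL-21 and 613 RPKM without cytokine. Pgk1 was lower at each later time, with 572, 459 and 417 RPKM at 0.5, 2 and 4 h, and was at 889 RPKM in the 24 h IL-2 library. Of 22 genes known to respond to low oxygen, a list picked after values had been seen, 4 were lower, where 1.86% of all genes were. Pgk1 and Aldoa are 2 of these 4. The others were Ndrg1 (6.92 RPKM after IL-21, 32.6 RPKM without cytokine) and Plin2, a lipid droplet protein (17.6 RPKM after IL-21, 74.9 RPKM without cytokine). The metallothioneins Mt1 and Mt2, which bind zinc and copper, had similar ratios. Mt1 was at 70.1 RPKM after IL-21 and 434 RPKM without cytokine, a ratio of 0.161 (0.153 to 0.171), and Mt2 at 51.5 RPKM after IL-21 and 318.8 RPKM without cytokine, a ratio of 0.162 (0.151 to 0.172). Both were also low in the 24 h IL-2 library, at 99.3 RPKM for Mt1 and 39.9 RPKM for Mt2. Of 19 cholesterol synthesis genes 0 reached 2-fold.

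**Figure D4:**
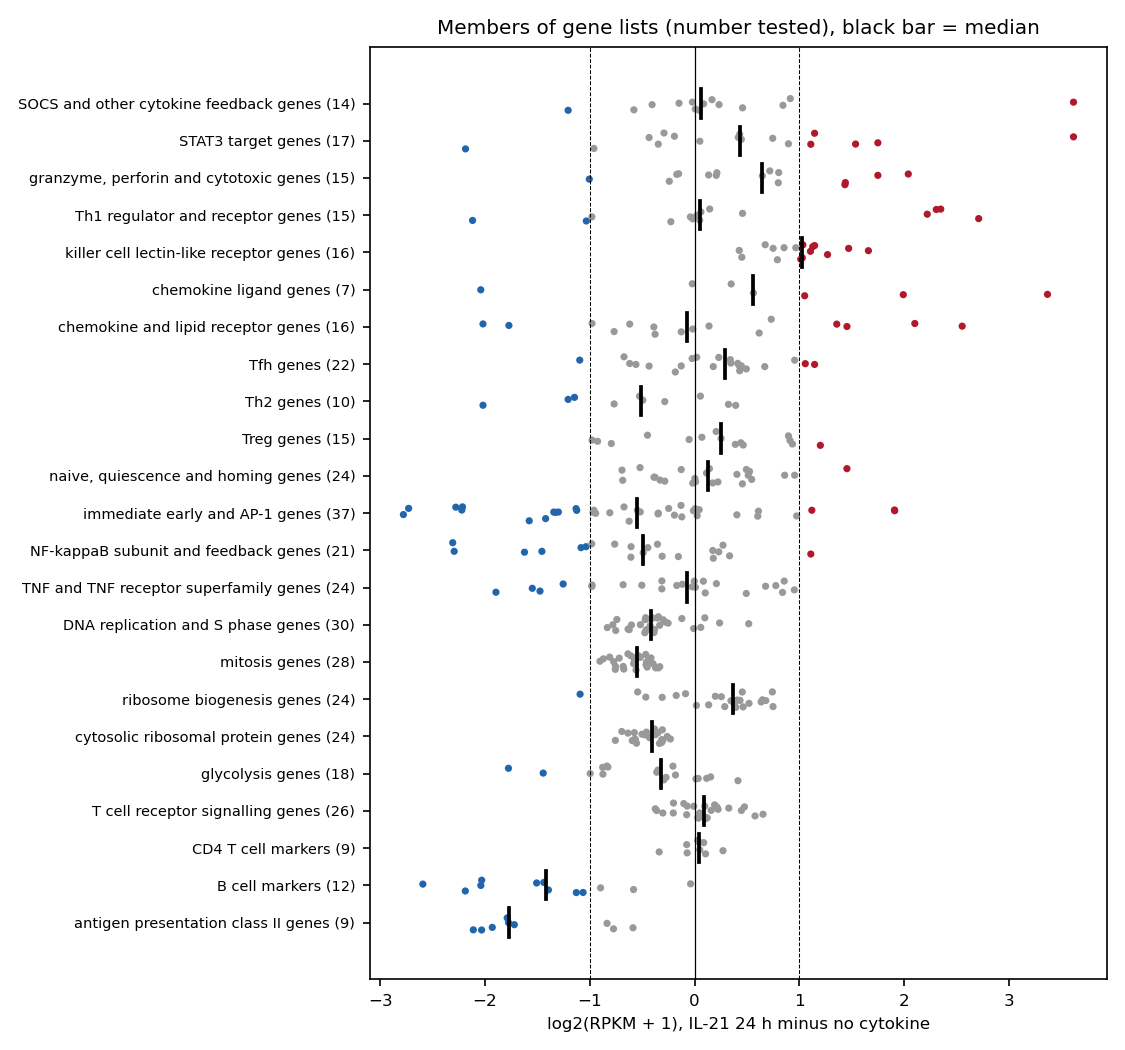
Log2(RPKM + 1) difference, IL-21 for 24 h minus no cytokine, for the tested genes of 23 lists (points) with the median of each list (bar). The medians of the cytotoxic, killer cell lectin-like receptor and STAT3 target lists lie to the right of 0, and those of the immediate early, NF-κB, mitosis, B cell marker and class II lists to the left.

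Several of the largest differences lay outside these groups. Serpinb5, a member of the serpin family also known as maspin, was at 19.1 RPKM after IL-21 for 24 h and 0.817 RPKM without cytokine, a ratio of 23.4 (18.5 to 30.1). It had 1.32, 4.82 and 10.4 RPKM at 0.5, 2 and 4 h, and 0.716 RPKM in the 24 h IL-2 library. Sgk1 was at 30.8 RPKM after IL-21 and 2.99 RPKM without cytokine, and at 18.3 RPKM after 0.5 h. Moxd1, a gene of the dopamine β-hydroxylase family, had 594 reads after IL-21 and 1 read without cytokine, a ratio of 539 whose counting interval ran from 96.4 to 21323. Lama5, a laminin chain, was at 12.7 RPKM after IL-21 and 1.26 RPKM without cytokine, and was near the same level, 12.8 RPKM, in the 24 h IL-2 library. Fam101b was at 19.6 RPKM after IL-21 for 24 h and 3.34 RPKM without cytokine, but below 4 RPKM at every earlier time. On the lower side, Serpinf1, a secreted serpin, was at 3.25 RPKM after IL-21 and 33.4 RPKM without cytokine. Fam183b had 5 reads after IL-21 and 181 without cytokine. The genes of the surface proteins Ly6c1 (304 RPKM after IL-21, 93.4 RPKM without cytokine) and Ly6c2 (122 RPKM after IL-21, 46.9 RPKM without cytokine) were higher, and since their sequences are near-identical the split between them is uncertain.

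The counts of several genes depended on the library chosen for comparison. Set against the IL-21 library of 0.5 h, the log2 difference at 24 h was 0.72 for Sgk1, 0.88 for Hlx, 0.95 for Il21r, 0.65 for Bcl3, 0.83 for Csf1, 0.93 for Btla and 0.88 for Klrk1, all under the 2-fold limit, as were -0.65 for Dusp2, -0.61 for Cxcr4, -0.71 for Gata3, -0.85 for Il12rb1 and -0.89 for Pdcd1lg2. Set against the IL-2 library of 0.5 h it was 0.65 for Ifng, 0.86 for Lrrc32, 0.93 for Bcl3 and -0.96 for Npm1, again under the limit. The cytotoxic genes Gzmb, Gzma and Prf1 and both IL-18 receptor chains remained at 2-fold or more against both.

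B cell markers and class II genes lay on the lower side. All 12 B cell markers were lower after IL-21 for 24 h, though Blk only by a log2 difference of -0.04, within the 0.06 by which TMM scaling moved the median of all genes. Of the 12, 9 were at least 2-fold lower, and the median log2 difference was -1.42. This median was -0.23 after 4 h of IL-21 and -0.83 after 24 h of IL-2. The markers summed to 30.6 RPKM in the 24 h IL-2 library, so lower levels were not particular to IL-21. Ms4a1, the gene of CD20, was at 1.45 RPKM after IL-21 and 13.8 RPKM without cytokine, and Cd79a, a chain of the B cell receptor, at 1.79 RPKM after IL-21 and 11.7 RPKM without cytokine. No B cell marker was at 0 reads in either library. All 9 class II genes were lower, 6 of them by at least 2-fold, and summed to 97.0 RPKM after IL-21 and 347 RPKM without cytokine. In the 24 h IL-2 library they summed to 159 RPKM. Cd74, the invariant chain, was at 34.4 RPKM after IL-21 and 152 RPKM without cytokine. Cd83 (182 reads after IL-21, 1318 without cytokine) is a marker of activated B and dendritic cells as well as of T cells. In such bulk libraries fewer B cells and less RNA per B cell cannot be told apart. Macrophage and monocyte markers summed to 12.9 RPKM after IL-21 and 13.0 RPKM without cytokine, and of the neutrophil markers 6 were in the files and 0 reached 1 RPKM in an RNA library. Of 5 plasma cell markers tested 1 was higher, Igj, with 158 reads after IL-21 and 9 without cytokine, and 1 lower, Irf4, and the list of 6 summed to 71.8 RPKM after IL-21 and 137 RPKM without cytokine. Without the B cell marker and class II genes, 179 genes were higher and 191 lower.

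**Figure D5:**
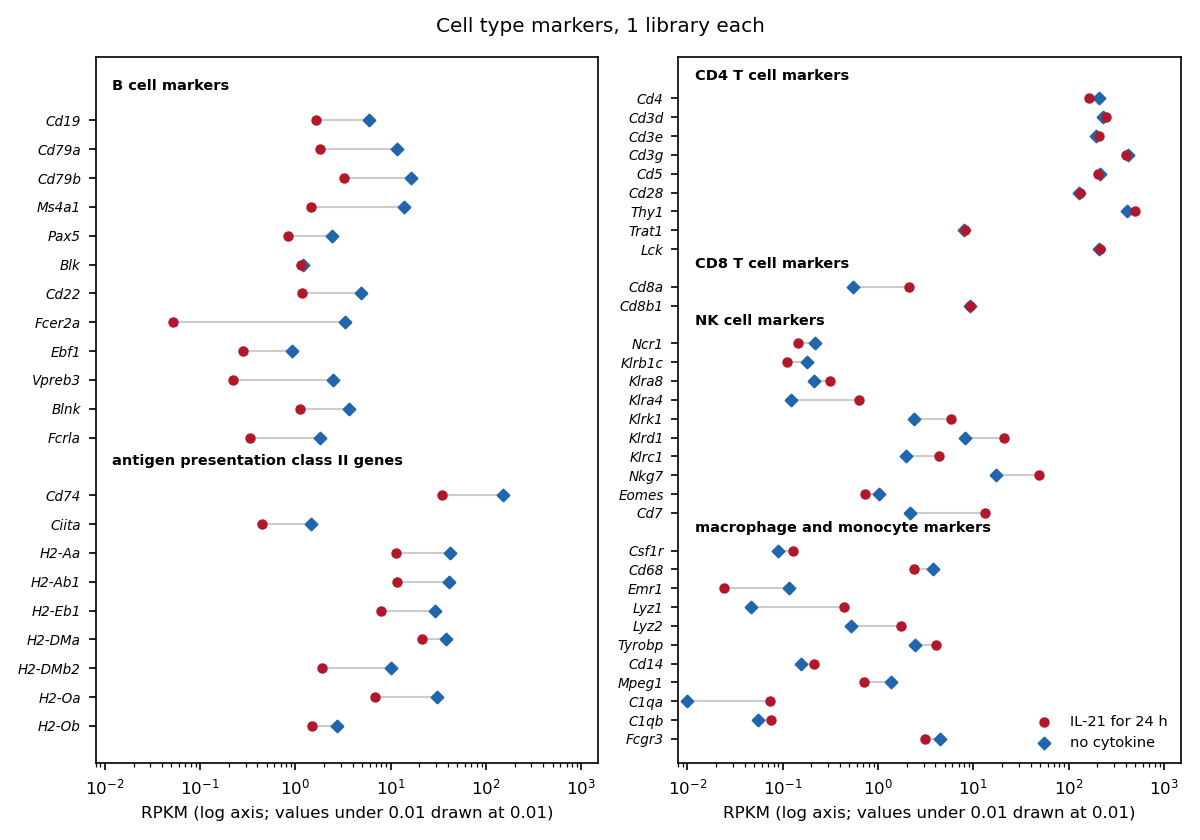
RPKM (log axis) of cell type markers after IL-21 for 24 h (red) and without cytokine (blue), 1 library each. The B cell markers other than Blk and all class II genes lie clearly lower after IL-21, while the CD4 T cell markers overlap.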

How the data were processed

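RNA was sequenced from 9 mouse CD4+ T cell cultures, 1 library per condition. Per the labels' protocols, libraries were made with a stranded kit. The submitters' processing notes name the build mm9 and the tools HOMER, SAMtools, TopHat2 2.0.11 and Bowtie 0.12.9, without saying what each did. For the annotation and the use of strand in counting the answer is not given in the sources used here, so overlapping and antisense genes are uncertain. The deposited files hold, per the file headers, a row per RefSeq transcript with whole-number read counts and the authors' RPKM values, the counts scaled to transcript length and library total. Of 29543 transcripts, 28929 were found in a RefSeq table of GRCm38.p6, from which names and promoter sequences were taken.

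Each symbol was represented by its transcript of highest mean RPKM over the 9 libraries. The 740 short-RNA symbols and the 11433 symbols under 1 RPKM in every library were left out. Differences are log2(RPKM + 1) after IL-21 for 24 h minus no cytokine, which understates changes of low genes, and 2-fold on that scale was the limit. Each RPKM ratio has a 95% interval (exact Clopper-Pearson) from the share of both counts that fell to one library. These intervals and the limit of 3 reads for a count of 0 cover counting error only, since reads are not independent molecules. Nothing in the labels gives the number of mice or cultures behind a library, and no test was made.

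Genes named are the 15 with the largest difference each way among those with at least 30 reads in the higher library, up to 6 counted members per list and direction, every receptor, JAK, STAT, feedback and lineage factor gene where useful, cell type markers (a few such genes are not reported here), and, for sequences, Socs3, Bcl6 and the 3 most abundant after IL-21 of the 15 largest positive genes that hold the palindrome (Socs3 is 1 of them, and Moxd1, less abundant, also holds it). The comparison, the 48 lists and the rule were chosen with earlier results of these data known, and 7 more lists were chosen after seeing the values. Il10, Il17a, Myc and the genes of the last part were chosen after their values were seen. Tools were Python 3.11.15, pandas 2.3.3, scipy 1.17.1 and, for scaling factors, edgeR 4.0.16 in R 4.3.3. The calculation was tested on simulated data.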

Additional observations from a re-analysis of the deposited data

Results flagged for a closer look

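For 10 genes the library of IL-21 for 24 h lay at least 2-fold to one side of the library without cytokine and another library at least 2-fold to the other. All values here are log2(RPKM + 1) differences from that library, which both sides share, and the differences between them were not tested. Bcl6 was at 1.14 after 24 h of IL-21 and -1.91 after 24 h of IL-2, Csf1 at 1.21 and -1.05 in the same order, and Cxcr1 at 2.76 and -1.16. In that order Cd7 was at 2.17 and -1.34, Klrd1 at 1.27 and -1.10, Ly6c1 at 1.69 and -1.47, Ly6c2 at 1.36 and -1.12, and Gbp2 at 1.09 and -1.37. Lta lay the other way round, at -1.47 after 24 h of IL-21 and 2.49 after 24 h of IL-2, and it was at 1.05 after 0.5 h of IL-21. Rgs1 was at -1.58 after 24 h of IL-21 and 1.08 after 0.5 h.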

How the results depend on the processing

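With 179 genes higher and 206 lower as reported, a pseudocount of 0.1 RPKM gave 293 and 456, since it lets low genes differ more, and a limit of 5 RPKM on the mean of the 9 libraries gave 107 and 133, since fewer genes were compared. TMM scaling gave 214 and 184, relative log expression 211 and 188, and upper quartile scaling 173 and 227. TMM moved the median of all genes to 0.06. With the IL-21 library of 0.5 h in place of the one without cytokine, 145 genes were higher and 191 lower, of which 125 and 145 were among those reported. With the IL-2 library of 0.5 h these were 222 and 295, and 150 and 184. Id3 then turned to 0.32 with the first and 0.076 with the second, Gadd45g to -1.16 and -0.34, and Ier3 to -0.18 with the IL-21 library. The cause was not tested. No other named gene at 2-fold or more changed sign under the alternatives run, whereas some differences under the limit did. Leaving out the B cell marker and class II genes was chosen after seeing the data and gave 179 and 191. No paired analysis was possible because each side is 1 library, and no library could be left out. At this depth a gene under 1 RPKM rests on few reads.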

Other observations

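Some abundant or family genes outside the report's lists also stood apart, named here after their values had been seen. Sbno2, a gene known to be induced through STAT3 in myeloid cells, was at 64.8 RPKM after IL-21 for 24 h and 16.5 RPKM without cytokine, a ratio of 3.92 (95% counting interval 3.76 to 4.09), and at 11.6 RPKM after 24 h of IL-2. Flot1, which encodes the membrane scaffold flotillin-1, was at 86.4 RPKM after IL-21 and 23.5 RPKM without cytokine. Trib2, a pseudokinase gene, was at 72.4 RPKM after IL-21 and 21.9 RPKM without cytokine. Elovl6, a fatty acid elongase, was at 38.3 RPKM after IL-21 and 7.35 RPKM without cytokine, whereas Scd2, a fatty acid desaturase, was at 50.6 RPKM after IL-21 and 157 RPKM without cytokine. Txk, a kinase of the Tec family, was at 17.2 RPKM after IL-21 and 4.36 RPKM without cytokine, and at 4.58 RPKM after 4 h.

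Of 3 interferon-induced transmembrane genes tested 2 were higher (1.62% over all genes). Ifitm1 was at 40.8 RPKM after IL-21 and 6.54 RPKM without cytokine, and Ifitm3 at 24.5 RPKM after IL-21 and 7.18 RPKM without cytokine. All 3 were at least 2-fold higher in the 24 h IL-2 library, so higher levels were not particular to IL-21. Of 6 Toll-like receptor genes 1 was higher (1.62% over all genes), Tlr1, with 37.2 RPKM after IL-21 and 7.71 RPKM without cytokine. Of 11 small nucleolar RNA host genes 3 were lower (1.86% over all genes), among them Snhg1 with 71.5 RPKM after IL-21 and 210 RPKM without cytokine. The phosphatase gene Dusp7 was higher, with 19.0 RPKM after IL-21 and 7.33 RPKM without cytokine. Nuclear and non-polyadenylated RNAs summed to 545 RPKM after IL-21 and 324 RPKM without cytokine, with 0 of 7 at 2-fold.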
